A study of Mus musculus with 6 samples.

Results

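The antioxidant genes and targets of the transcription factor NRF2 are a set of 38 named genes that make, use and recycle glutathione, break down peroxides and superoxide, and bind metals. They were followed on Affymetrix arrays of left ventricles in 3 wild-type (WT) and 3 Glut1-TG samples, with 1 array for each sample. Glut1-TG mice express human Glut1, an insulin-independent glucose transporter, from the alpha-myosin heavy chain promoter, which drives expression in cardiomyocytes. WT mice served as controls without the transgene. The animals of both groups were FVB males, 11 to 12 weeks old and fed standard chow. The comparison asks which of these genes differ in hearts that take up more glucose. A member was measured when the array annotation gave a probe set its symbol and no other, and its brightest probe set by mean log2 signal stood for the gene. This held for 35 of the 38 genes, and 34 lay above the filter on dim probe sets (a signal of 115) and were tested among 13178 genes. Prdx1 was not measured because its 5 probe sets also carry the symbol Gm21399, and Prdx5 and Prdx6 have no probe set in the annotation used here. Slc7a11, the cystine importer that feeds glutathione synthesis, was left out of the test as dim. Its signals were 60.3, 142 and 90.2 in WT and 176, 70.6 and 78.8 in Glut1-TG hearts, and these ranges overlap.

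NRF2, encoded by Nfe2l2, is held in the cytosol and marked for degradation by KEAP1. When electrophiles or oxidants modify KEAP1, NRF2 enters the nucleus and binds antioxidant response elements together with small MAF proteins. Its known targets include quinone reduction (Nqo1), glutathione synthesis (Gclc, Gclm) and heme breakdown (Hmox1). Many other enzymes of the set, such as the superoxide dismutases and catalase, are abundant in heart muscle, where mitochondria are a main source of superoxide.

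None of the 34 members tested passed limma in Glut1-TG hearts (0 higher and 0 lower at an adjusted p under 0.05), where 0.258% of all genes tested passed as higher and 0.599% as lower. At an unadjusted limma p under 0.05, Nqo1, Gpx3 and Gsr were higher and Hmox1, Nnt and Glrx5 were lower, 3 members each way. The shares among all genes were 5.47% and 5.81%, and with 34 members tested nothing is read from counts this small. The smallest adjusted p of a member was 0.107. Log2 fold changes (Glut1-TG minus WT) ran from -0.60 for Hmox1 to 0.47 for Nqo1, with 17 above 0 and 17 below. Their median was 0.0032, beside 0.02 over all genes tested. The 95% confidence interval of the fold change was taken gene by gene. It lay within 1.5-fold in both directions for 24 of the 34 members (70.6%) and for 44.5% of all genes tested. Members and all genes were not matched for signal level here, so no trait of the members is read from this. With 3 arrays in each group their number limits the precision, and the intervals of the other 10 members reach further than 1.5-fold. The study's legends give the arrays as replicate hearts, and its methods take n as independent experiments. The labels name no animal for a sample, so p-values measure the spread between these 6 samples.

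**Figure D1:**
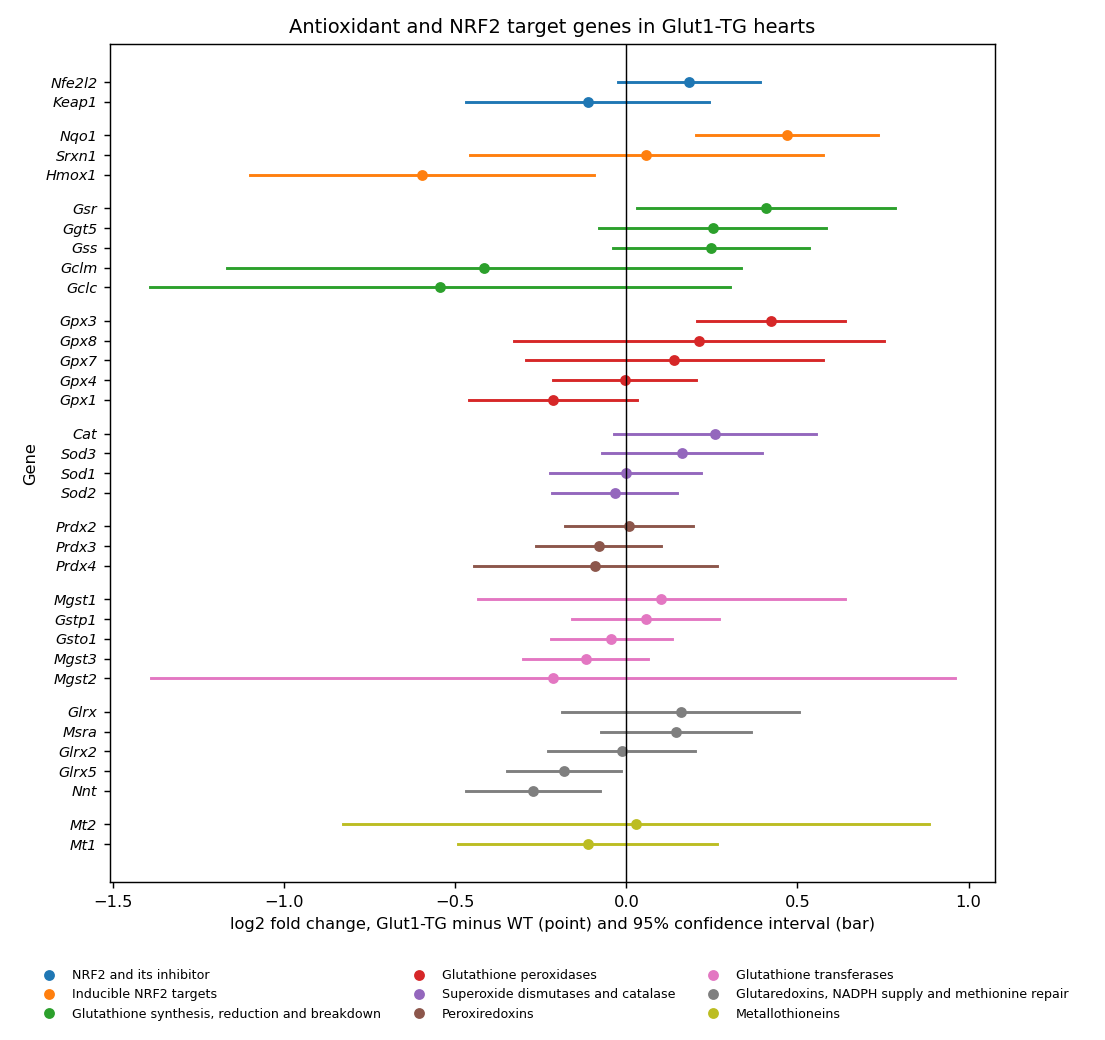
Log2 fold change of each of the 34 tested members (points, horizontal axis, Glut1-TG minus WT) with its 95% confidence interval (bars), grouped by role (colours). The points lie between -0.60 and 0.47; bars of Nqo1, Gsr and Gpx3 lie above 0 and those of Hmox1, Glrx5 and Nnt below, while no member passed after adjustment over all genes.

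In 5 members every Glut1-TG signal lay above every WT signal (Nfe2l2, Nqo1, Gss, Gpx3 and Sod3) and in 3 every one lay below (Gpx1, Nnt and Glrx5). Among all genes tested 8.67% were separated upward and 8.77% downward, and the 26 other members overlapped. These member counts depend on the scaling of the arrays: they were 3 and 5 with each array centred on its median, 9 and 4 after quantile normalization, and 15 and 1 with each array centred on its cardiomyocyte markers. The shares of all genes moved too, to 6.37% upward and 11.5% downward, 8.43% and 8.81%, and 21.5% and 1.91% in the same order. Centring on cardiomyocyte markers moved the median of all genes to 0.20, and the members' median to 0.18. Without WT replicate 1 the counts were 5 and 8 (15.8% and 13.3% of all genes), and without WT replicate 3 they were 9 and 4 (12.1% and 12.3%). Fewer arrays overlap less often by construction, so nothing about the members is read from these. At the thresholds of the study's methods for fold change and unadjusted p Nqo1 and Gpx3 were higher and 0 members were lower. Of all genes tested, 3.21% passed as higher and 2.65% as lower. The p-values here came from the methods' t-test on the brightest probe set of each gene above the filter. These are not the study's own lists of genes, which are longer in both directions.

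Across the array, 34 genes rose and 79 fell, and the split was 48 and 66 after quantile normalization, 24 and 90 after centring on medians and 60 and 29 after centring on cardiomyocyte markers. Of the cardiomyocyte markers 11 of 11 were tested and bright, with summed signals of 425138 to 512773 in WT and 400391 to 425839 in Glut1-TG hearts, 0 passed limma and 3 were lower at an unadjusted p under 0.05. Among the marker lists of endothelial cells, fibroblasts, macrophages, and smooth muscle and pericytes, 0 genes passed. Their median log2 fold changes were 0.05, 0.07, 0.11 and -0.11 in that order. Kdr (endothelial, -0.44 on the log2 scale) and Pdgfrb (pericyte, -0.28) were lower at an unadjusted p under 0.05, without overlap. Emcn (endothelial, -0.05) was also lower without overlap, while Tie1 (endothelial, 0.21) and Adgre1 (macrophage, 0.31) were higher without overlap. The cardiomyocyte markers Tnnt2 (-0.22), Mybpc3 (-0.29) and Myl3 (-0.17) were lower without overlap. Among all genes tested 8.67% were separated upward and 8.77% downward. Of the 4 atrial markers, the light chains Myl7 and Myl4 passed limma as higher. Myl7 had 14.2 to 90.5 in WT, under the filter signal of 115, and 315 to 713 in Glut1-TG hearts. It cleared the filter only through the Glut1-TG arrays, so no size of change is read from it. Myl4 had 278 to 430 in WT and 1036.5 to 1697 in Glut1-TG hearts. Nppa had -0.07 and overlapped, and Sln, below the filter, had 114 to 117 in WT and 39.4 to 65.3 in Glut1-TG hearts. Of the erythroid and adipocyte markers, 1 gene each was above the filter. In whole ventricle, fewer cells of a type and less RNA per cell cannot be told apart. The median signal was 213 on Glut1-TG replicate 1 and 171 to 188 on the other 5 arrays. The ratio of the 3′ to the 5′ control probe set of beta-actin was 1.31 to 1.40 in WT and 0.995 to 1.06 in Glut1-TG hearts, and that of Gapdh overlapped at 0.789 to 0.830. The part of these differences in the results was not tested. Slc2a1, the mouse gene for Glut1, cannot check the transgene, whose sequence is human. Its probe set of highest signal had means of 489 in WT and 787 in Glut1-TG hearts, while its 2 further probe sets had 327 and 143, and 414 and 88.6.

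NRF2 and its inhibitor did not pass. Nfe2l2 had signals of 3307, 3387 and 3403 in WT and 4214, 3447 and 3838 in Glut1-TG hearts. The groups did not overlap, but the lowest Glut1-TG array lay close to the highest WT array. On the log2 scale the difference was 0.18 (standard error, SE, 0.09; 95% confidence interval -0.02 to 0.39, adjusted p = 0.502 from limma). Keap1 had 1585, 1624 and 1326 in WT and 1088, 1595 and 1553 in Glut1-TG hearts, with Glut1-TG replicate 1 lowest of all 6. Its log2 fold change was -0.11 (95% confidence interval -0.47 to 0.24, adjusted p = 0.836). Without Glut1-TG replicate 1 it was 0.06, and after centring on cardiomyocyte markers 0.07. The second Keap1 probe set had -0.22.

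Of the inducible targets, Nqo1, the quinone reductase often used as a readout of NRF2, had the highest log2 fold change of the members. Its signals were 1406, 1580.5 and 1391.5 in WT (mean 1459 ± 105, SD, n = 3) and 1842, 1903 and 2347 in Glut1-TG hearts (2030 ± 276, SD, n = 3). All 3 Glut1-TG arrays lay above all 3 WT arrays, and replicate 3 was the highest. The difference was 0.47 on the log2 scale (SE 0.12), a fold of 1.39 (95% confidence interval 1.15 to 1.67), and did not pass limma (adjusted p = 0.144, and 0.114 to 0.447 without each 1 of the arrays). Hmox1, the heme oxygenase that releases iron, carbon monoxide and biliverdin, lay on the other side. Its signals were 572, 766 and 1096 in WT and 480, 494 and 584 in Glut1-TG hearts. The groups overlapped, since WT replicate 1 lay just below Glut1-TG replicate 3, and WT varied more. This is a log2 fold change of -0.60 (SE 0.22, 95% confidence interval -1.10 to -0.10, adjusted p = 0.365). Srxn1, the sulfiredoxin that reactivates overoxidized peroxiredoxins, had a log2 fold change of 0.06, and its 3 other probe sets had 0.34, -0.55 and 0.22. Nqo1 and Hmox1, both targets of NRF2, had fold changes of opposite sign, and neither passed.

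**Figure D2:**
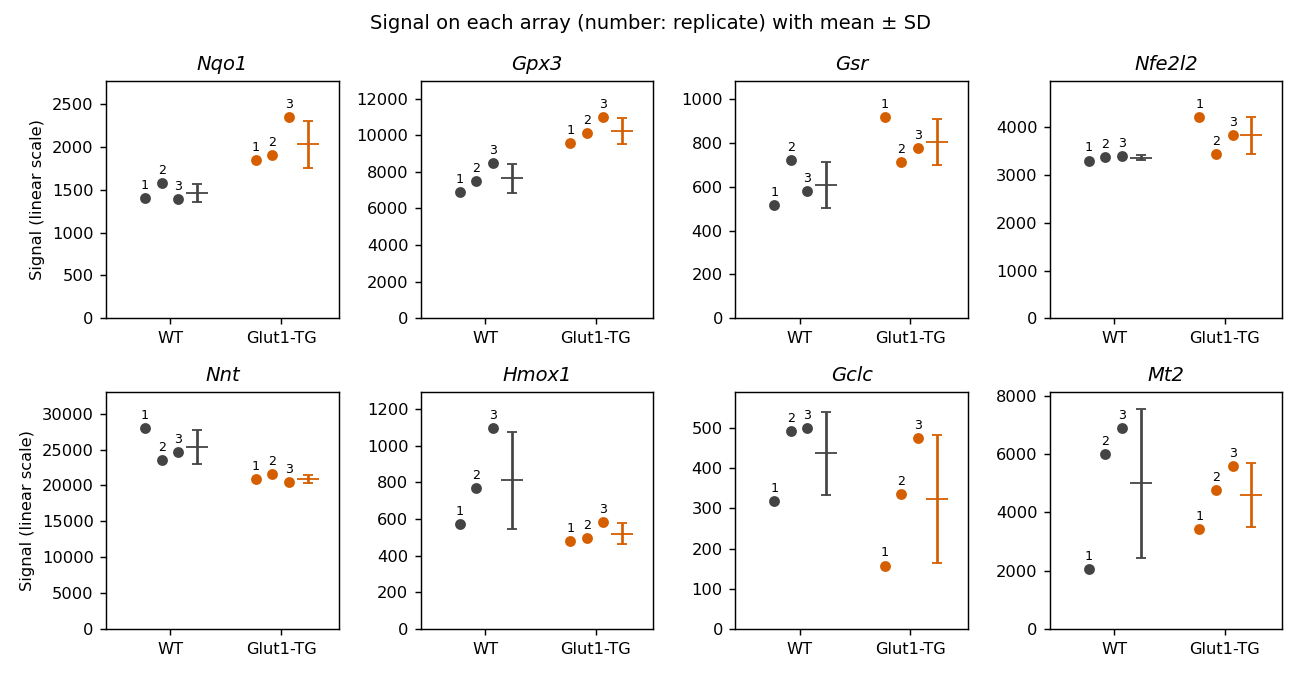
Signal on a linear scale (vertical axis, from 0) of 8 members on the 3 WT (grey) and 3 Glut1-TG arrays (orange), each point labelled with its replicate, with mean and SD beside the points. Nqo1, Gpx3 and Nfe2l2 lie higher and Nnt lower on all Glut1-TG arrays, while Gsr, Hmox1, Gclc and Mt2 overlap. Replicate 1 is the lowest array of both groups for Gpx3, Hmox1, Gclc and Mt2.

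The promoters of the members were searched for the core of the antioxidant response element, TGACNNNGC, on both strands (GCNNNGTCA on the other), to show where a member carries this sequence close to its start. Windows ran from 250 bases before to 50 after each RefSeq start (GRCm38.p6), and 30 of the 38 members had one. The core was found in 7 of 38 windows (18.4%), beside 12.4% of all 32851 windows in the table. The stretches around it are shown for 4 tested members with a match upstream of the start, Nfe2l2 itself among them, with the matched bases in capitals and the rest of up to 45 bases on each side in lower case.
Nfe2l2 (chr2:75704850-75704913, minus strand): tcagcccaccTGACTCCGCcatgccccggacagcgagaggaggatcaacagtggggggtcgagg
Gclm (chr3:122245378-122245476, plus strand): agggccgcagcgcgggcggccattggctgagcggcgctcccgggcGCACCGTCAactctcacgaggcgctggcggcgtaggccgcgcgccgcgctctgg
Mgst1 (chr6:138140426-138140524, plus strand): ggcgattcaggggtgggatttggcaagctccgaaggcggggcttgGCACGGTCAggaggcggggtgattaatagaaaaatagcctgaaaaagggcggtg
Mt2 (chr8:94172494-94172592, plus strand): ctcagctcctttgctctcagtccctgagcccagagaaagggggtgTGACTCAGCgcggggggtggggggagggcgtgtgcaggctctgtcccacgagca
The match starts 240 bases before the start of Nfe2l2, 134 before that of Gclm, 56 before that of Mgst1, 79 before that of Mt2 and 29 bases into the transcript of Srxn1. Sod1 (56 bases before its start) and Prdx1 (133 before) hold the remaining matches, and their stretches are not shown. A match is a description of these letters, not of binding. The 6 tested members with a match had log2 fold changes from -0.42 (Gclm) to 0.18 (Nfe2l2), and none passed limma.

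Glutathione synthesis begins with the glutamate-cysteine ligase, made of the catalytic subunit Gclc and the modifier Gclm, and ends with the synthetase Gss. Gclc had signals of 317, 493 and 500 in WT and 158, 337 and 475 in Glut1-TG hearts. Gclm had 448, 674 and 653 in WT and 240, 587 and 589 in Glut1-TG hearts. For both subunits replicate 1 was the lowest array of each group, and Glut1-TG replicate 1 lay under every other array. The log2 fold changes were -0.54 (SE 0.38, adjusted p = 0.627) and -0.42 (SE 0.34, adjusted p = 0.681). Without Glut1-TG replicate 1 they were -0.10 for Gclc and 0.01 for Gclm. The second probe sets had -0.0078 for Gclc and 0.16 for Gclm. Gss had 663, 650 and 627 in WT and 808, 763 and 734 in Glut1-TG hearts, without overlap and with little spread. Its log2 fold change was 0.25 (95% confidence interval -0.04 to 0.53, adjusted p = 0.514), and its second probe set had 0.27. The reductase Gsr, which returns oxidized glutathione to its reduced form with NADPH, had 517, 724 and 583 in WT and 918, 714 and 778 in Glut1-TG hearts. The groups overlapped by 1 WT array. Its log2 fold change was 0.41 (SE 0.17, adjusted p = 0.411). A second Gsr probe set had signals of 554, 486 and 517 in WT and 771, 837 and 695 in Glut1-TG hearts. It did not overlap between groups, and had a log2 fold change of 0.56 (SE 0.15, adjusted p = 0.209 over 27022 probe sets). Ggt5, which cleaves extracellular glutathione conjugates, had 0.25, and its 2 further probe sets had 0.21 and -0.54.

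Among the glutathione peroxidases, Gpx3, the secreted enzyme of plasma and extracellular space, came closest to the threshold. Its signals were 6921, 7495 and 8501 in WT (mean 7639 ± 800, SD, n = 3) and 9561, 10106 and 10982 in Glut1-TG hearts (10216 ± 717, SD, n = 3). All Glut1-TG arrays lay above all WT arrays. On the log2 scale Glut1-TG minus WT was 0.42 (SE 0.10), a fold of 1.34 (95% confidence interval 1.15 to 1.56), with adjusted p = 0.107 from limma. Gpx3 passed after quantile normalization (0.51, adjusted p = 0.0228) and after centring on cardiomyocyte markers (0.60, adjusted p = 0.0461, where the median of all genes was 0.20), and without each 1 of the arrays the adjusted p was 0.113 to 0.286. Gpx1, the cytosolic and mitochondrial peroxidase, had 2492, 2418 and 2942 in WT and 2029, 2316 and 2413 in Glut1-TG hearts. It did not overlap, although Glut1-TG replicate 3 lay just under WT replicate 2, and its log2 fold change was -0.21 (adjusted p = 0.507). Gpx4, which reduces lipid peroxides in membranes, had a log2 fold change of -0.0050 with an interval of -0.21 to 0.20. The endoplasmic reticulum enzymes Gpx7 and Gpx8 had 0.14 and 0.21 with wider intervals (-0.29 to 0.57 and -0.33 to 0.75).

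Superoxide dismutases turn superoxide into hydrogen peroxide. Sod1 (cytosolic) and Sod2 (mitochondrial) had log2 fold changes of -0.0024 and -0.03, with intervals of -0.22 to 0.22 and -0.22 to 0.15. Further Sod2 probe sets had -0.10, 0.05 and -0.14. Sod3, the extracellular form, had 1054, 1098 and 1083 in WT and 1139, 1247 and 1237 in Glut1-TG hearts. The groups did not overlap, and the log2 fold change was 0.16 (SE 0.10, adjusted p = 0.602). Cat, the peroxisomal enzyme that splits hydrogen peroxide, had 7519, 8981 and 8959 in WT and 8192, 11426 and 11089 in Glut1-TG hearts. Replicate 1 was the lowest array of each group, and the groups overlapped through it. Between the groups the log2 difference was 0.26 (95% confidence interval -0.04 to 0.56, adjusted p = 0.504). The second Cat probe set had 0.16. The peroxiredoxins, thiol peroxidases fed by thioredoxin, were measured through 3 of their 6 genes. Prdx2 had 0.0088 (95% confidence interval -0.18 to 0.20), the mitochondrial Prdx3 had -0.08 (-0.26 to 0.10) and Prdx4 of the endoplasmic reticulum had -0.09 (-0.45 to 0.27). Further Prdx4 probe sets above the filter had 0.08 and -0.27.

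The transhydrogenase Nnt, an inner mitochondrial membrane protein that uses the proton gradient to make NADPH, had the lowest adjusted p of the members below 0. Its signals were 28011, 23505 and 24639 in WT and 20883, 21532 and 20423 in Glut1-TG hearts. The groups did not overlap, and WT replicate 1 was the highest. The log2 difference came to -0.27 (SE 0.09, 95% confidence interval -0.47 to -0.08, adjusted p = 0.281), and a second probe set above the filter had -0.19. With the mean of all its probe sets the value was -0.01. That mean includes a dim probe set below the filter, with means of 96 in WT and 155 in Glut1-TG hearts. The cardiomyocyte markers had a median log2 fold change of -0.17 on the same arrays. Glrx5, a mitochondrial glutaredoxin of iron-sulfur cluster assembly, had 7784, 7294 and 7889 in WT and 6581, 6783 and 6872 in Glut1-TG hearts. It did not overlap, and its log2 fold change was -0.18 (SE 0.08, adjusted p = 0.41). After centring on cardiomyocyte markers Glrx5 had -0.0010 and Gpx1 -0.03. Glrx and Glrx2, which reduce protein-glutathione disulfides, had 0.16 and -0.01, and Msra, which repairs oxidized methionine, had 0.15. The glutathione transferases among the members lay between -0.22 and 0.10. Of these, Mgst2 had signals of 67.9 to 211 around the filter and an interval of -1.39 to 0.96. Gstp1 and Gsto1 had 0.06 and -0.04, and the microsomal Mgst1 and Mgst3 had 0.10 and -0.12. A dimmer probe set above the filter had the opposite sign for Gsto1 (0.14) and for Mgst3 (0.25).

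The metallothioneins bind zinc and copper and scavenge radicals. Mt2 had 2072, 6014 and 6904 in WT and 3421, 4778 and 5580 in Glut1-TG hearts. The WT arrays alone spanned more than the difference between the groups, and replicate 1 was the lowest in each. Its log2 fold change was 0.03, with an interval of -0.83 to 0.88. Mt1 had 13018, 17583 and 20785 in WT and 12903, 16626 and 17520 in Glut1-TG hearts, with replicate 1 again lowest in each group (-0.11, interval -0.49 to 0.26).

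Replicate 1 was often the lowest array of its group. For 11 of the 34 (32.4%) replicate 1 was the lowest array in both groups, beside 14.9% of all genes tested. Replicate 2 was lowest in both groups for 1 member and replicate 3 for 2. The 11 were Gclc, Gclm, Hmox1, Mt1, Mt2, Mgst1, Gpx8, Cat, Gpx3, Msra and Sod3. Of 63 member probe sets above the filter 0 passed either way. For 7 of the 20 members with several of them the probe sets differed in sign (Gclm, Ggt5, Gsto1, Mgst3, Prdx4, Sod2 and Srxn1). The replicate 1 pattern was seen after the values were examined and has no test, and the labels do not say that a number links a WT heart to a Glut1-TG heart. The within-group SD was largest for Mt2 (0.72 on the log2 scale), Mgst2 (0.67), Gclc (0.63) and Gclm (0.58). It was smallest for Glrx5 (0.05), Sod3 (0.06) and Gss (0.06). Its median was 0.14 for the members and 0.23 for all genes tested, without matching for signal level.

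**Figure D3:**
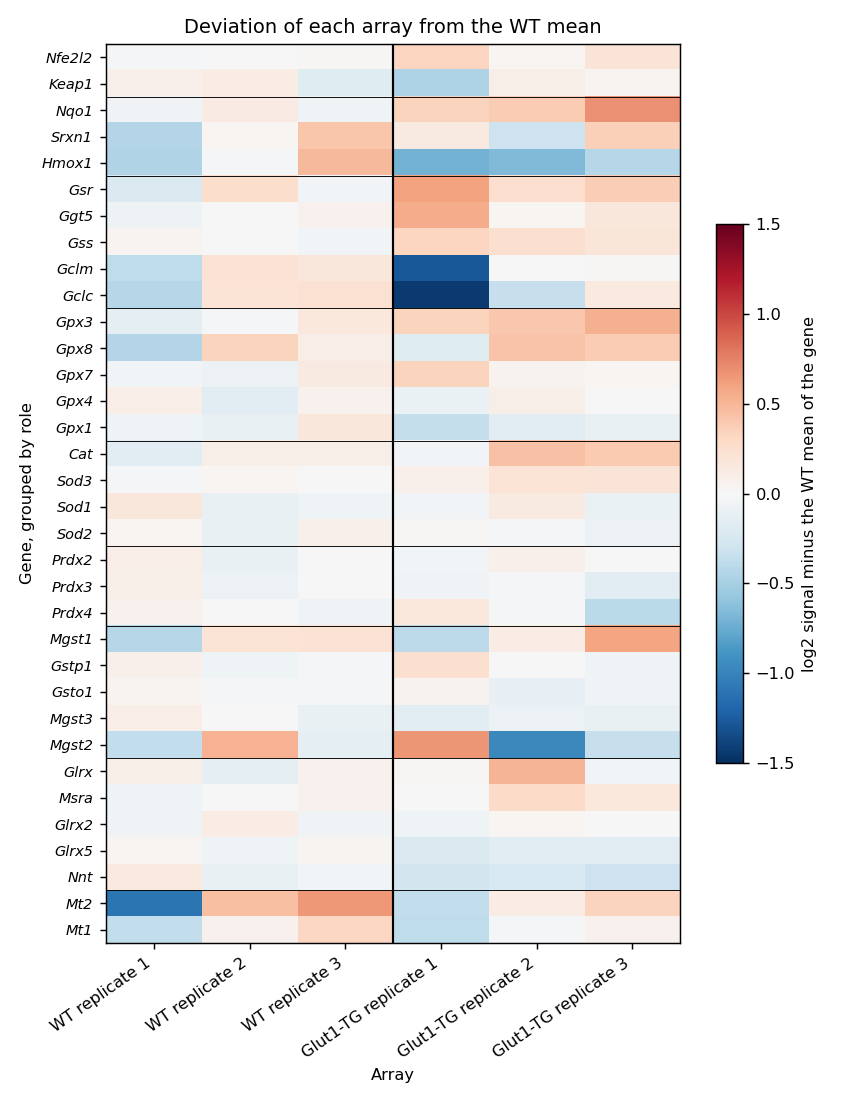
Log2 signal of each tested member (rows, by role) on each array (columns) minus the mean of the gene in WT hearts, in red for higher and blue for lower. Gclc and Gclm are more than 2-fold below the WT mean on Glut1-TG replicate 1, Mt2 is so on WT replicate 1, and the rows of the superoxide dismutases and peroxiredoxins stay pale.

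Other genes of the pathway were followed through a list of 57, of which 48 were tested. Of these, 1 rose and 5 fell by limma and 42 did not pass. Among all genes tested 0.258% passed as higher and 0.599% as lower. The members and this list were chosen with earlier results of these data known. Nothing is therefore read from this count beside the 0 of 34 members, and the difference was not tested. The largest fall on this list was in Gstk1, the glutathione transferase of mitochondria and peroxisomes. Its signals were 3460, 2891 and 2890 in WT and 918, 1368.5 and 1008 in Glut1-TG hearts. On the log2 scale that is -1.50 (SE 0.15, adjusted p = 0.00198). Gstm2, a cytosolic transferase, fell from 3534, 3444 and 3480 to 1294, 1570 and 1757, which is -1.19 on the log2 scale (SE 0.12, adjusted p = 0.00176). Gsta4, which conjugates the lipid peroxidation product 4-hydroxynonenal, fell from 2658, 2930 and 2681 to 1575, 2025 and 1860, by 0.61 on the log2 scale (adjusted p = 0.0425). Oplah, the 5-oxoprolinase that returns glutamate to the glutathione cycle, fell from 1150, 1439 and 1227 to 631, 570 and 640, which is -1.05 on the log2 scale (SE 0.13, adjusted p = 0.00655). In all of these the groups were separate.
Of the enzymes that supply NADPH, Idh2 of mitochondria fell by 0.73 (SE 0.10, adjusted p = 0.00953), and Pgd of the pentose phosphate pathway rose by 0.56 (SE 0.11, adjusted p = 0.0485). Pgd had 995, 1121 and 1007 in WT and 1548, 1602 and 1452 in Glut1-TG hearts, and its 3 other probe sets had 0.53, 0.70 and 0.48. Idh2 had 36143, 28408 and 29541 in WT and 19100, 18395 and 19096 in Glut1-TG hearts. Its second probe set was far dimmer, with means of 212 in WT and 213 in Glut1-TG hearts, and had 0.09. None of the 6 passed when eBayes was run without a trend (adjusted p = 0.108 to 0.273) or by the methods' test after adjustment (0.205 to 0.284). Gstk1, Gstm2 and Idh2 passed without any 1 of the arrays, but Idh2 did not with the mean of its probe sets (-0.32, adjusted p = 0.672). That mean gives the dim Idh2 probe set the same weight as the bright one. Oplah had an adjusted p of 0.0501 without WT replicate 2 and 0.0646 after centring on cardiomyocyte markers, where Gsta4 had 0.225 and Pgd 0.0601 (a log2 fold change of 0.74). The limma adjusted p of Pgd was also 0.0543 after quantile normalization, 0.0781 after centring on medians and 0.0542 with no filter. With probe sets averaged Pgd had 0.0735 and Gsta4 0.0607, and with the replicate block they had 0.0883 and 0.0552. The calls of Gsta4 and Pgd lay close to the threshold, and their log2 fold changes stayed between -0.69 and -0.50 and between 0.53 and 0.83 without each 1 of the arrays. Gsta4 passed with Glut1-TG replicate 2 left out (0.0384) and not without any 1 of the other 5 arrays (0.0631 to 0.191), and Pgd passed with Glut1-TG replicate 1 left out (0.0221) and not without any 1 of the others (0.105 to 0.222).
The partners and repressors of NRF2 (Bach1, the small MAF genes, Cul3 and Sqstm1 among them) had 0 of 8 past limma, with log2 fold changes from -0.87 to 0.04. Of the 5 thioredoxin and thioredoxin reductase genes 0 passed, with values from 0.05 (Txnrd1) to 0.41 (Txnrd3, adjusted p = 0.421). Txnrd3 had 458, 659 and 484 in WT and 670, 760 and 674 in Glut1-TG hearts, without overlap. Cbs, the first enzyme of the route from homocysteine to cysteine, also did not overlap and had 0.43 (adjusted p = 0.519). Of the 48 genes, 7 lay higher without overlap and 7 lower, beside 8.67% and 8.77% of all genes tested. At the study's thresholds 4 were higher (Abcc1, Ephx1, Gstt1 and Pgd) and 5 lower, beside 3.21% and 2.65% of all genes.

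**Figure D4:**
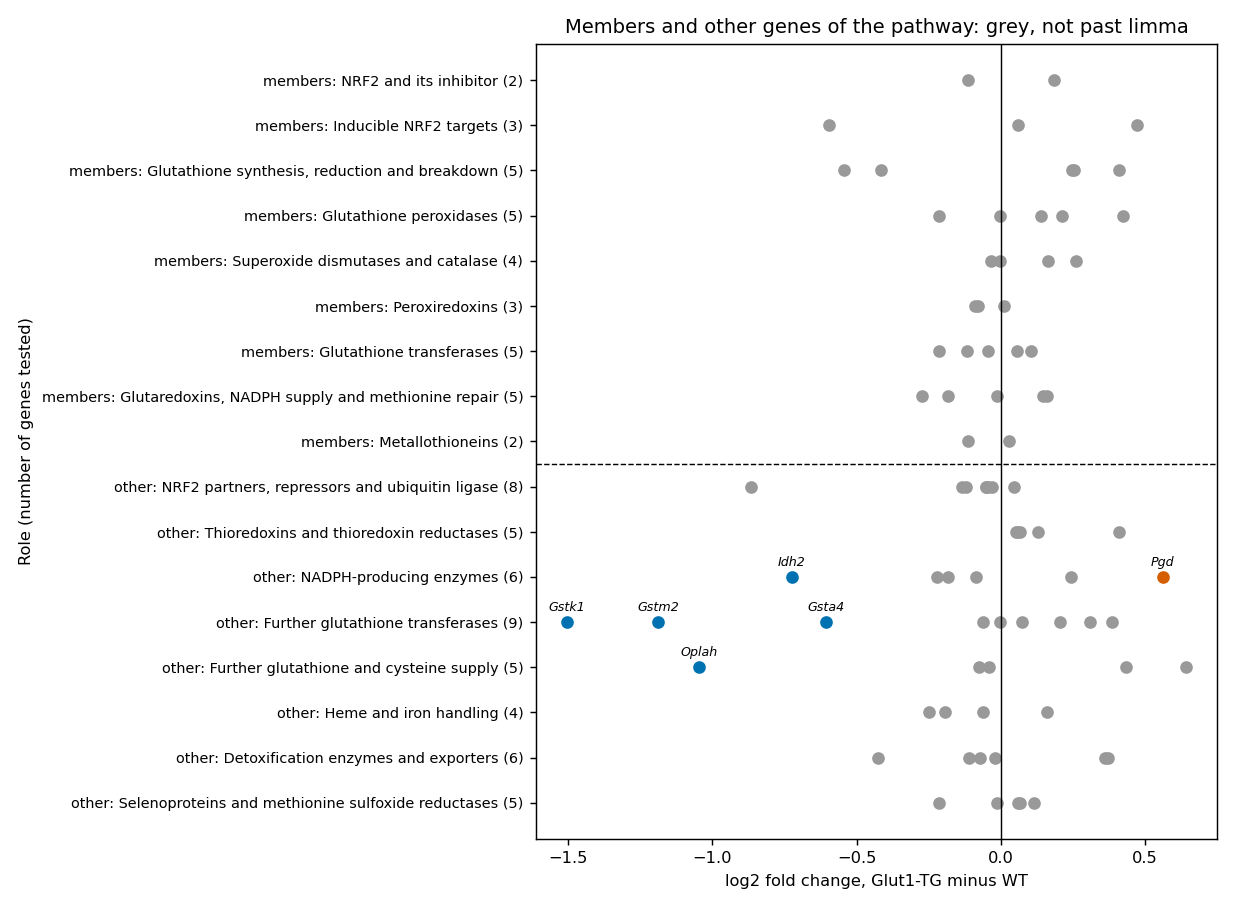
Log2 fold change (horizontal axis, Glut1-TG minus WT) of each tested member (above the dashed line) and each tested gene of the other pathway list (below it), by role with the number of genes tested. Grey points did not pass limma; the 5 blue points (Gstk1, Gstm2, Oplah, Idh2 and Gsta4) fell and the orange point (Pgd, whose call ends under several scalings) rose, and all 34 members are grey.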

How the data were processed

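Gene expression was measured in left ventricles in 3 WT and 3 Glut1-TG samples, 1 Affymetrix array each. The authors deposited linear signal intensities made with GCOS (version not given in the sources used here). Their mean after trimming 2% at each end was 500 on each array, so no further scaling was applied. Of 45101 probe sets, 64 controls were left out. Values under 1 (48 in all) were set to 1 before log2. Probe sets with 1 gene symbol in the platform annotation (34945, with 932 holding several and 9160 none) covered 18193 genes, and the probe set of highest mean stood for its gene. The lowest 40% of probe sets were left out. Of the Entrez identifiers, 34741 matched RefSeq (GRCm38.p6) and 0 symbols changed.

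Groups were compared with limma 3.58.1 in R 4.3.3 (lmFit, eBayes with trend), without covariates, with Benjamini-Hochberg adjustment over 13178 genes at 0.05. The fit was first run on simulated data with independent noise and no array effects, and nothing is read from that run here. Values are mean ± SD, and fold changes carry limma's standard error and 95% confidence interval. The members and lists were chosen with earlier results of these data known. Values on every array are given for members that passed, those whose groups did not overlap, and Nfe2l2, Keap1, Nqo1, Hmox1, Gclc, Gclm, Gsr and Cat (for Slc7a11 and Mt1 and Mt2, they were added after their values were seen). Of the other pathway genes, those past limma and the 8 of largest fold change without overlap are named. Bach1, Cul3, Sqstm1, Txnrd1, Maff, Mafg, Abcc1, Ephx1 and Gstt1 were named after their values were seen. So were the markers Tie1, Adgre1, Emcn, Tnnt2, Mybpc3 and Myl3.

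Alternatives were quantile normalization, centring on each array's median or on its cardiomyocyte markers, an offset of 50, no filter or a filter of 60%, the mean of a gene's probe sets, leaving out each array, eBayes without trend, the replicate number as a block, the methods' t-test, the study's thresholds and unadjusted p. The numbers of the arrays were not taken to pair samples. The study's thresholds were applied to the genes tested here, so counts at them are not those of the study's own lists.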

Additional observations from a re-analysis of the deposited data

How the results depend on the processing

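The count of 0 members past limma was the same with arrays centred on their median, with an offset of 50, with no filter or the strict filter, with probe sets averaged, without each 1 of the arrays, with eBayes without trend and with the methods' t-test after Benjamini-Hochberg adjustment. It was 1 (Gpx3) after quantile normalization and 1 (Gpx3) after centring on the cardiomyocyte markers, 2 at the study's thresholds and 6 at an unadjusted limma p. The median log2 fold change of the members was 0.085 after quantile normalization and 0.18 after centring on the cardiomyocyte markers, and ran from -0.02 to 0.04 without each 1 of the arrays. Members without overlap numbered 13 (38.2%) and 16 (47.1%) in these 2 settings, beside 17.2% and 23.4% of all genes. They numbered 9 to 13 without each 1 of the arrays (26.5% to 38.2%, beside 24.5% to 30.3% of all genes, shares that rise by construction with fewer arrays). Of the other pathway genes 6 passed, against 5 after quantile normalization, 5 after centring on medians and 5 with no filter. Their count was 3 after centring on the cardiomyocyte markers and 3 with probe sets averaged. It was 0 by eBayes without trend, 0 by the methods' t-test with adjustment, 14 at an unadjusted p, and 3 to 5 without each 1 of the arrays. Over all genes, 113 passed, against 49 with probe sets averaged, 4 by eBayes without trend, 1 by the methods' t-test with adjustment, 772 at the study's thresholds, 1486 at an unadjusted p, and 44 to 86 without each 1 of the arrays. Signs turned for Keap1 (0.068 after centring on the cardiomyocyte markers, -0.21 to 0.064 without each 1 of the arrays, the highest without Glut1-TG replicate 1), Gclm (-0.63 to 0.014 without each 1 of the arrays, the highest without Glut1-TG replicate 1), Nfe2l2 (-0.084 with its probe sets averaged, 1 of which is dim) and Slc2a1 (-0.93 with that mean). None of these 4 genes passed in the main comparison.

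With the replicate block, 0 members, 4 other pathway genes and 69 genes in all passed. Deviations of same-numbered arrays from their group means correlated at 0.08, -0.03 and 0.05 over 13178 genes. Arrays of different numbers were not set beside these, so nothing about pairing is read from them. The numbers were not taken as pairs because the labels give no pairing. Signal over background limits Mgst2, Slc7a11 and, on the other pathway list, Maff, which lie near or under the filter.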
